A study of Mus musculus with 12 samples.

Results

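The unfolded protein and integrated stress response was followed in bone marrow–derived macrophages (BMDMs) through 38 genes of the 34327 in the expression table. The genes were chosen by symbol and sorted by role. They comprised 15 chaperones and folding enzymes of the endoplasmic reticulum (ER), 6 genes of ER-associated degradation and translocation, and 4 genes of stress sensing (Ern1, Eif2ak3, Atf6 and Xbp1). The other members were the transcription factors Atf4, Atf5 and Ddit3, the ATF4 stress targets Trib3, Chac1 and Sesn2, and 7 ATF4 target genes of amino acid and folate metabolism. All 38 reached a mean of at least 1 TPM (the share of transcripts a gene takes, scaled to a fixed total per library) over the 12 libraries and were tested against plates. In the comparisons among gels 37 were tested, without Chac1, which passed the mean only through its plate libraries.

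BMDMs were grown from the marrow of wild-type C57BL/6J mice in L929-conditioned medium and then kept for 24 hours on tissue culture (TC) plates or inside floating gels of rat tail collagen I, at 2 mg/ml (low-collagen gels) or 7 mg/ml (high-collagen gels). In each setting cells were left untreated or received IL-4 at 20 ng/ml, and polyA RNA of 2 libraries per condition was measured as TPM, a unit that keeps no read depth. Culture format and RNA handling cannot be told apart in a difference between gels and plates. Nothing says that the libraries of a condition came from separate animals, so p-values measure only the spread between these samples, which may be technical. With 2 libraries against 2, an exact two-sided permutation test cannot go below p = 0.333. Differences were therefore tested by limma across all genes on log2(TPM + 1), and called at an adjusted p under 0.2, with log2 differences given ± SE. Fold changes are on that scale, which understates the change of genes with low levels.

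Secreted and membrane proteins fold in the ER with the help of chaperones. When unfolded chains pile up, the sensors IRE1 (Ern1), PERK (Eif2ak3) and ATF6 start the unfolded protein response: IRE1 splices the Xbp1 message, ATF6 is cut to release a transcription factor, and PERK phosphorylates the initiation factor eIF2α. Phosphorylation of eIF2α is shared with other kinases that sense amino acid lack, heme lack or viral RNA, and this integrated stress response favors translation of ATF4, which drives genes of amino acid supply. RNA levels therefore report on the targets of the pathways, while sensor activity itself is set at the protein level.

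The macrophage label was checked first. All 10 macrophage markers reached a mean of 1 TPM, led by lysozyme (Lyz2), and their summed level was 28742 and 28159 TPM on untreated plates, 43536 and 46353 in untreated low-collagen gels and 54207 and 54019 in untreated high-collagen gels. With IL-4 these sums were 17714 and 17712, 30914 and 32103, and 37878 and 35898 TPM. The marker lists of dendritic cells, eosinophils with basophils and mast cells, and T and NK cells held no gene with a mean of 1 TPM, the fibroblast list held 1 of 8 (Postn, between 3.66 and 8.03 TPM in the 4 gel libraries with IL-4 and under 0.5 in the other 8) and the neutrophil list 3 of 8, led by S100a9. Neutrophil markers summed to 10.3 and 6.14 TPM on untreated plates, 24.6 and 34.6 in untreated low-collagen gels and 20.01 and 16.3 in untreated high-collagen gels, and to 5.25 and 10.6, 23.2 and 16.7, and 15.8 and 14.6 with IL-4. Plasma and B cell markers, which matter here because plasma cells are rich in ER chaperones, summed to 14.7 and 14.3 TPM on untreated plates and 234 and 202, and 159 and 156, in the untreated low- and high-collagen gels. With IL-4 they summed to 12.8 and 10.3 on plates, 68.8 and 69.9 in low-collagen gels and 70.7 and 64.04 in high-collagen gels. Of these 10 markers, 3 had a mean of at least 1 TPM (Ighm, the most abundant, Sdc1 and Cd79b). The markers did not move together with IL-4: in low- and high-collagen gels Ighm was at 216 and 185, and 139 and 136 TPM untreated and 40.4 and 41.6, and 37.2 and 37.02 with IL-4, and the plasma cell marker Sdc1 at 10.7 and 9.76, and 14.2 and 13.4 untreated and 22.3 and 23.4, and 25.7 and 22.05 with IL-4. Cd79b lay between 4.02 and 6.30 TPM in the 8 gel libraries. Jchain, Igkc and Mzb1 lay under 0.5 TPM in every library. In bulk libraries, fewer cells of a type and less RNA per cell cannot be told apart.

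Promoters were searched for the response elements of the pathway because many members of a sublist moved together. RefSeq windows (GRCm38.p6) running from 250 bases before to 50 after the start were held for 35 of the 38 members. The ER stress element (ERSE, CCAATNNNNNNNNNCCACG, searched on both strands), the classical site of ATF6 with NF-Y, was present in 7 of 13 chaperone and folding enzyme genes and in 1 of 6 degradation and translocation genes (Syvn1). None of the 16 promoters of the other 4 sublists held it, and neither did most of the genome: 37 of 27025 genes, or 0.137%, had a match. The 9 matches in 8 genes are shown in the gene's own direction with 5 bases on either side, because the element is what these 8 promoters share. Capitals mark the fixed letters, which read CGTGG and ATTGG where the element lies on the opposite strand.
Hspa5, chr2:34772020-34772048, plus strand: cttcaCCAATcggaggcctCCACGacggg
Calr, chr8:84847070-84847098, minus strand: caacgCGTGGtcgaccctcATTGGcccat
Canx, chr11:50325795-50325823, minus strand: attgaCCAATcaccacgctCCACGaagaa
Creld2, chr15:88819515-88819543, plus strand: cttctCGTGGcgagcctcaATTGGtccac
Dnajc3, chr14:118937822-118937850, plus strand: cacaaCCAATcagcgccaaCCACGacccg
Hsp90b1, chr10:86705633-86705661, minus strand: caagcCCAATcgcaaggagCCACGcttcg
Hsp90b1, chr10:86705528-86705556, minus strand: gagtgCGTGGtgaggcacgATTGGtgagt
Pdia6, chr12:17266486-17266514, plus strand: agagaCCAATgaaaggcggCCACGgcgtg
Syvn1, chr19:6046527-6046555, plus strand: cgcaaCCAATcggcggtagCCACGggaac

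The matches began between 44 (Syvn1) and 212 bases (Hsp90b1) before the start. Hsp90b1, the ER member of the HSP90 family, was the only member with 2 ERSE matches. The shorter ERSE-II (ATTGGNCCACG) was found in Herpud1 and Dnajb11, against 12 genes of 27025 (0.0444%), and the XBP1 element UPRE (TGACGTGG) in none of the 35, against 193 genes (0.714%). The C/EBP-ATF response element (CARE, TGATGNAA), through which ATF4 acts, is short and was present in 4.51% of all genes. Among members it was found in 2 of 7 amino acid and folate genes (Asns and Slc7a11), 2 of 3 stress targets (Trib3 and Chac1) and Herpud1. No matches of different elements overlapped in a member's promoter. The window of Hspa5, the gene of the central chaperone BiP, is given whole at chr2:34771840-34772139 (plus strand) with its ERSE in capitals, beside that of Asns, asparagine synthetase, at chr6:7693160-7693459 (minus strand) with its CARE in capitals, 23 bases before the start, because these genes stand for ER folding and for amino acid supply. A match is a description of the letters, and a window without one says nothing about the factor.
Hspa5: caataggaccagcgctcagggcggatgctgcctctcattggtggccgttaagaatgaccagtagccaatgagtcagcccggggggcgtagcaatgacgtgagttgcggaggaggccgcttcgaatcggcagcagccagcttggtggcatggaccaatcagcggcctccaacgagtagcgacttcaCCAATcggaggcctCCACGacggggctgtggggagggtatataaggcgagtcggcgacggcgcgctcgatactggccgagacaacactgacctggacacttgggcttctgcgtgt
Asns: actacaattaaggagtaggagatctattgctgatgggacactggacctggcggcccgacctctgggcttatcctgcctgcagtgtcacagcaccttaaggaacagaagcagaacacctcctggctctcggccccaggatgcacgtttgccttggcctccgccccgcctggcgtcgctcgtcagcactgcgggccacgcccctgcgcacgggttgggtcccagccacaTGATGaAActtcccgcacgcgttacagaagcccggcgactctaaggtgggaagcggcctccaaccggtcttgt

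**Figure D1:**
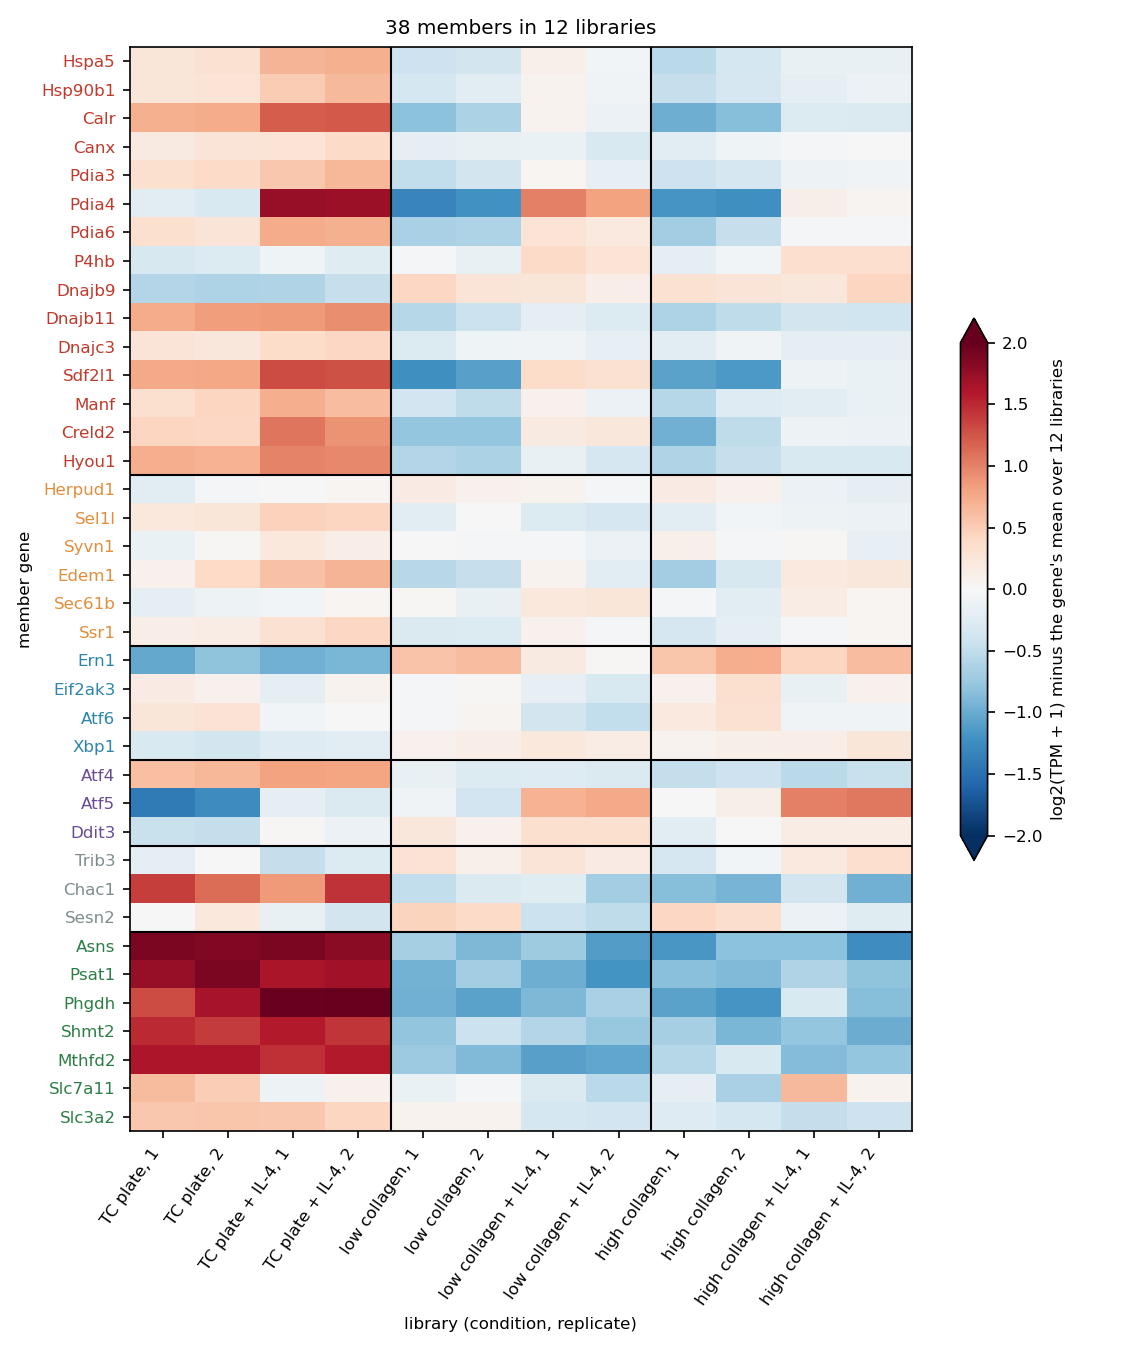
Each row is a member gene, grouped and colored by role from ER chaperones at the top to amino acid genes at the bottom, and each column a library; color gives log2(TPM + 1) minus the gene's mean over 12 libraries. The 5 genes from Asns to Mthfd2 are high in the 4 plate libraries and low in all 8 gel libraries, while most ER chaperones are higher with IL-4 inside each setting.

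Gels against plates gave the widest differences. Without IL-4, 26 of 38 members were lower in low-collagen gels than on plates (68.4%, where 44.3% of all 11865 tested genes were) and 9 were higher (23.7%, against 28.5% of all genes). High-collagen gels showed 25 lower and 8 higher than plates, with 45.5% and 28.0% of all genes. With IL-4 the counts were 28 lower and 8 higher in low-collagen gels, with 52.2% and 22.8% of all genes called, and 26 lower and 8 higher in high-collagen gels, with 48.1% and 26.5%. Both gels were compared with the same plate libraries, so these counts are not independent. Each lower count includes Chac1, which passed the filter only through the plates where it is high, so that its direction was set by the filter. Among the 37 members and 11291 genes with a mean of at least 1 TPM both on plates and in gels, 25 and 24 members were lower without IL-4 at low and high collagen (67.6% and 64.9%, against 45.5% and 46.9% of those genes) and 27 and 25 with it (73% and 67.6%, against 53.9% and 49.6%). Their higher counts of 9, 8, 8 and 8 were 24.3%, 21.6%, 21.6% and 21.6%, against 27.5%, 27%, 21.9% and 25.6%. The members' median log2 difference was −0.60 and −0.72 without IL-4 and −0.62 and −0.63 with it (−0.54, −0.72, −0.58 and −0.57 without Chac1), where all genes stood at −0.13, −0.16, −0.28 and −0.20. Rescaling each library by median ratios brought the medians of all genes to 0.016, 0.0099, 0.0065 and 0.017, and the members to −0.43, −0.53, −0.30 and −0.39. After rescaling 25 of 38 members, Chac1 included, were lower and 11 higher in untreated low-collagen gels, where 36% and 37.1% of all genes were, and 25 and 12 in untreated high-collagen gels (36.7% and 37%). Among cells given IL-4 the rescaled counts were 23 and 9 at low (35.7% and 36.4%) and 21 and 12 at high collagen (36.4% and 37.6%).

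IL-4 raised many members. On plates 18 of 38 were higher with IL-4 (47.4%, against 14.7% of all genes) and 4 were lower, fewer than the 24.0% of all genes that were lower. Low-collagen gels had 16 of 37 higher and 7 lower, where 13.2% and 40.4% of the 11852 genes tested in gels were called, and high-collagen gels 19 of 37 higher and 5 lower, where 11.5% and 22.8% were. Members' medians were 0.15, 0.065 and 0.21 in these comparisons, above those of all genes at −0.06, −0.19 and −0.10. Median-ratio rescaling moved the median of all genes in low-collagen gels to −0.0047, and left 21 members higher and 4 lower there, where 23.5% and 21.1% of all genes were, 25 and 3 on plates (18.8% and 20.3%), and 22 and 4 in high-collagen gels (16.8% and 14.9%). Members called in either direction numbered 22 on plates, or 14 without untreated plate replicate 1, and 24 in high-collagen gels, or 13 without untreated high-collagen replicate 1.

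Most members higher with IL-4 were ER folding genes. Of 15 chaperones and folding enzymes, 10 were higher with IL-4 on plates, 12 in low-collagen gels and 11 in high-collagen gels, where 14.7%, 13.2% and 11.5% of all genes were, and none was lower. Their median differences of 0.29, 0.41 and 0.29 compare with −0.063, −0.25 and −0.037 for the 7 amino acid and folate genes, of which 1, 0 and 2 were higher and 1, 2 and 2 lower. After rescaling the medians were 0.35, 0.61 and 0.39 for the folding genes and −0.0044, −0.056 and 0.056 for the amino acid and folate genes, so the sign of the last turned with the scaling. Against plates, 13 of the 15 were lower in each of the 4 comparisons with gels (against 44.3%, 45.5%, 52.2% and 48.1% of all genes), and P4hb and Dnajb9 were higher. After rescaling 13 were lower in 3 of those comparisons and 12 in high-collagen gels given IL-4 (36%, 36.7%, 35.7% and 36.4% of all genes). The summed level of the 15 genes was 5948 and 6109 TPM on untreated plates, 3507 and 3633 in untreated low-collagen gels and 3297 and 3631 in untreated high-collagen gels. IL-4 libraries stood at 8024 and 8156 TPM on plates, 5371 and 4809 in low-collagen gels and 4543 and 4593 in high-collagen gels. Every IL-4 library was above both untreated libraries of its setting, and every gel library below both plate libraries of the same treatment.

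**Figure D2:**
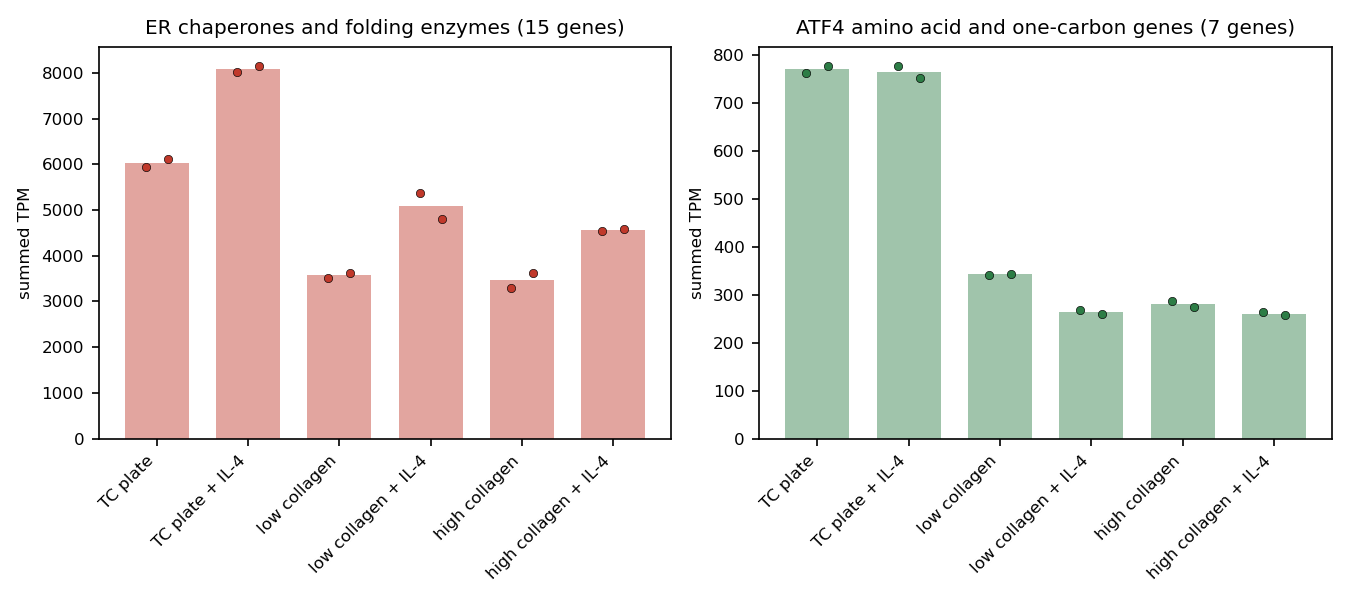
Bars give the mean and points the 2 libraries of each condition for the summed TPM of 15 ER chaperones and folding enzymes (left) and of 7 ATF4 amino acid and folate genes (right), on axes that start at 0. The left sum is higher with IL-4 in all 3 settings, and the right sum lies between 752 and 779 TPM on plates and between 259 and 344 in gels.

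Pdia4, a protein disulfide isomerase that forms and reshuffles disulfide bonds, had the widest IL-4 response among the members. Its level was 141 and 134 TPM on untreated plates and 559 and 545 with IL-4, 65.97 and 70.6 untreated and 334 and 289.5 with IL-4 in low-collagen gels, and 72.8 and 70.2 untreated and 180.3 and 172 with IL-4 in high-collagen gels. Untreated libraries of the 2 gels overlapped, and with IL-4 plates were highest and high-collagen gels lowest with no overlap. The IL-4 difference was 2.00 ± 0.073 on plates, 2.17 ± 0.083 in low-collagen gels (4.51-fold) and 1.29 ± 0.083 in high-collagen gels (2.44-fold), with limma adjusted p = 8.96e-08, 2.44e-06 and 4.94e-05. High-collagen gels with IL-4 held less Pdia4 than low-collagen gels with IL-4 (−0.82 ± 0.083, adjusted p = 0.00766).

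Sdf2l1, a partner of BiP and the J proteins, was also higher with IL-4 and lower in gels. It was at 223 and 227 TPM on untreated plates, 55.8 and 61.6 in untreated low-collagen gels and 62.6 and 59.00 in untreated high-collagen gels, and at 326 and 319, 171 and 162, and 122 and 120.1 with IL-4 in the same order. All gel libraries, with IL-4 or without, lay below all plate libraries. The difference from plates was −1.92 ± 0.063 and −1.87 ± 0.063 without IL-4 (low and high collagen, adjusted p = 2.7e-08 and 2.32e-08) and −0.95 ± 0.063 and −1.40 ± 0.063 with it. IL-4 raised Sdf2l1 by 0.52 ± 0.063 on plates, 1.49 ± 0.075 in low-collagen gels and 0.98 ± 0.075 in high-collagen gels.

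Calreticulin (Calr), the calcium-binding lectin chaperone, had the highest mean TPM of the members over the 12 libraries, though P4hb and Hspa5 had higher means in untreated gels of either density, Hsp90b1 in untreated high-collagen gels and P4hb in high-collagen gels with IL-4. Plates held 1453 and 1481 TPM untreated and 2063 and 2088 with IL-4. Low-collagen gels held 502 and 570.3 TPM untreated and 938 and 817 with IL-4, and high-collagen gels 451 and 495 untreated and 738 and 731 with IL-4. All gel libraries were below all plate libraries, and IL-4 libraries above untreated ones in each setting. The gel difference was −1.45 ± 0.079 and −1.63 ± 0.079 without IL-4, and the IL-4 difference 0.50 ± 0.079, 0.71 ± 0.09 and 0.64 ± 0.09 on plates, in low- and in high-collagen gels (adjusted p = 0.00131, 0.000947 and 0.00261).

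BiP (Hspa5, ENSMUSG00000026864, chr2:34771970-34777547 in GENCODE on GRCm38), whose promoter is printed above, was higher with IL-4 and lower in gels. It was at 875 and 916 TPM on untreated plates and 1193 and 1211 with IL-4. In low-collagen gels it was at 558 and 576, then 799.6 and 714 with IL-4, and in high-collagen gels at 508 and 581, then 668 and 672. Each IL-4 pair was above its untreated pair, and the gel pairs were below the plate pairs of the same treatment. IL-4 raised Hspa5 by 0.42 ± 0.071, 0.41 ± 0.08 and 0.30 ± 0.08 (adjusted p = 0.00191, 0.00713 and 0.04). The last call was lost without untreated high-collagen replicate 1 (adjusted p = 0.205).

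Among the other folding genes, the disulfide isomerase Pdia6 rose with IL-4 by 0.44, 0.87 and 0.54 on plates, in low- and in high-collagen gels, and the chaperone Creld2 by 0.57, 0.97 and 0.63. Pdia3 (the glycoprotein disulfide isomerase ERp57) and Hsp90b1 passed the test in all 3 settings, with differences between 0.25 and 0.37, but both calls in high-collagen gels were lost without untreated high-collagen replicate 1 (adjusted p up to 0.22 and 0.304), that of Hsp90b1 also without high-collagen IL-4 replicate 2, and that of Pdia3 on plates without IL-4 plate replicate 2 (adjusted p = 0.214). Hyou1, the exchange factor of BiP, passed in all 3 as well (0.27, 0.37 and 0.22), and the secreted survival factor Manf on plates and in low-collagen gels (0.29 and 0.43). The Hyou1 call in high-collagen gels was lost without untreated high-collagen replicate 1 or either high-collagen IL-4 library (adjusted p up to 0.488), and the Manf call on plates without replicate 1 of plates of either treatment (up to 0.32). The J proteins, which hand clients to BiP, differed from one another. In untreated low- and high-collagen gels the log2 difference from plates was −1.29 and −1.36 for Dnajb11, −0.42 and −0.38 for Dnajc3, and 0.94 and 0.88 for Dnajb9. The IL-4 differences of Dnajb9, of 0.069, −0.15 and 0.046, did not pass, and 10.8% of its 31-base words are shared with other genes, as are 12.3% for Hsp90b1 and 7.25% for Manf. P4hb, which is both a disulfide isomerase and a subunit of collagen prolyl 4-hydroxylase, was higher in gels by 0.21 and 0.18 without IL-4 and by 0.49 and 0.50 with it. The call in untreated high-collagen gels was lost without untreated high-collagen replicate 2 (adjusted p = 0.284).

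Canx, which binds glycoproteins as calreticulin does, and Dnajc3 passed in none of the IL-4 comparisons as deposited. After rescaling Canx was higher with IL-4 in all 3 settings (0.17, 0.15 and 0.23) and Dnajc3 on plates and in low-collagen gels (0.21 and 0.27). For Canx in low-collagen gels the value as deposited was −0.06, so its sign turned with the scaling.

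Genes of ER-associated degradation and translocation, which pull failed proteins out of the ER or thread new ones in, numbered 6. With IL-4, 4 were higher on plates, 3 in each kind of gel, and 0, 1 and 1 lower, where 14.7%, 13.2% and 11.5% of all genes were higher and 24.0%, 40.4% and 22.8% lower. After rescaling 6, 3 and 3 were higher (18.8%, 23.5% and 16.8% of all genes) and 0, 0 and 1 lower (20.3%, 21.1% and 14.9%). Edem1, a mannosidase-like protein that directs glycoproteins to degradation, was at 193 and 239.8 TPM on untreated plates and 271 and 291 with IL-4, at 123 and 131 untreated and 190.3 and 155 with IL-4 in low-collagen gels, and at 111 and 144 untreated and 206 and 213 with IL-4 in high-collagen gels. The IL-4 pair lay above the untreated pair in each setting, and both high-collagen libraries with IL-4 lay within the range of untreated plates while the other 6 gel libraries lay below it. Its IL-4 difference in high-collagen gels was 0.72 ± 0.13 (adjusted p = 0.0095), while the calls on plates (0.39) and in low-collagen gels (0.43) were lost without untreated plate replicate 1 or IL-4 plate replicate 2 (adjusted p up to 0.4) and without low-collagen IL-4 replicate 1 (adjusted p = 0.202).

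Sel1l, the adaptor of the HRD1 ubiquitin ligase, was at 77.8 and 78.9 TPM on untreated plates, 91.8 and 90.7 on plates with IL-4, 56.9 and 66.2 untreated and 55.2 and 52.7 with IL-4 in low-collagen gels, and 57.00 and 64.4 untreated and 61.9 and 61.5 with IL-4 in high-collagen gels. All gel libraries were below all plate libraries. The differences were −0.35 ± 0.084 and −0.37 ± 0.084 without IL-4 (low and high collagen) and −0.75 ± 0.084 and −0.56 ± 0.084 with it. IL-4 gave 0.22 on plates and −0.18 in low-collagen gels. Both calls were lost when 1 library was left out: on plates without any 1 of the 4 plate libraries (adjusted p up to 0.266), and in low-collagen gels without either high-collagen IL-4 library, either low-collagen IL-4 library or untreated low-collagen replicate 2 (up to 0.644), and rescaling turned the latter to 0.022.

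Ssr1, a subunit of the translocon-associated complex, was at 44.7 and 45.3 TPM on untreated plates and 50.8 and 54.4 with IL-4, 33.2 and 33.7 untreated and 43.4 and 39.6 with IL-4 in low-collagen gels, and 32.2 and 35.5 untreated and 40.2 and 41.96 with IL-4 in high-collagen gels. IL-4 pairs were above untreated pairs throughout, by 0.30 ± 0.087 in low-collagen gels (adjusted p = 0.035). The smaller calls on plates (0.22) and in high-collagen gels (0.27) were lost without untreated replicate 1 or IL-4 replicate 2 of the setting (adjusted p up to 0.295 and 0.308). Herpud1, which holds both an ERSE-II and a CARE, was higher in untreated low- and high-collagen gels than on plates (0.25 and 0.25) and lower with IL-4 in high-collagen gels (−0.29 ± 0.077, adjusted p = 0.0437, or 0.202 without untreated high-collagen replicate 1). Syvn1, the gene of the ubiquitin ligase HRD1, was higher with IL-4 on plates (0.22), and the translocon subunit gene Sec61b in low- and high-collagen gels (0.29 and 0.21). The Syvn1 call was lost without untreated plate replicate 1 or either IL-4 plate library (adjusted p up to 0.473), and the Sec61b call in high-collagen gels without untreated replicate 2 or IL-4 replicate 1 of those gels (up to 0.496). In all, 23.5% of the 31-base words of Sec61b transcripts are shared with other genes, chiefly the pseudogene Gm10320, so its level is less certain.

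Of the sensors, the IRE1 gene Ern1 separated gels from plates. It was at 14.6 and 17.2 TPM on untreated plates and 15.3 and 15.8 with IL-4, at 45.9 and 47.4 in untreated low-collagen gels and 45.4 and 51.4 in untreated high-collagen gels, and at 34.8 and 31.2, and 41.9 and 47.6 in the same gels with IL-4. The highest plate library lay below the lowest gel library. Ern1 was 2.83-fold and 2.93-fold higher in untreated low- and high-collagen gels (1.50 ± 0.11 and 1.55 ± 0.11, adjusted p = 1.98e-06 and 1.49e-06). IL-4 lowered it in low-collagen gels (−0.49 ± 0.10, adjusted p = 0.0102), and the differences of −0.023 on plates and −0.11 in high-collagen gels did not pass.

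Xbp1, whose message IRE1 splices, was at 139.5 and 134 TPM on untreated plates and 143 and 147 with IL-4, at 183 and 189 in untreated low-collagen gels and 199 and 189.9 with IL-4, and at 181 and 187 in untreated high-collagen gels and 189.7 and 203 with IL-4. All gel libraries exceeded all plate libraries, with differences of 0.44 ± 0.056, 0.43 ± 0.056, 0.42 ± 0.056 and 0.43 ± 0.056 for low and high collagen without IL-4 and then with it (adjusted p = 9.2e-05, 0.000112, 0.000131 and 0.000101). IL-4 gave 0.086, 0.062 and 0.094, none of which passed as deposited. After rescaling Xbp1 was called higher with IL-4 in every setting (as were 18.8%, 23.5% and 16.8% of all genes), the only stress sensing gene that was. Gene-level TPM pools spliced and unspliced Xbp1. Atf6 was at 31.7 and 32.8 TPM on untreated plates, 26.4 and 27.8 in untreated low-collagen gels and 30.7 and 33.2 in untreated high-collagen gels, and with IL-4 at 25.7 and 26.9, 20.5 and 18.7, and 25.4 and 25.5. IL-4 pairs were lower than untreated pairs in every setting, with differences of −0.28 ± 0.081, −0.45 ± 0.092 and −0.31 ± 0.092 (adjusted p = 0.031, 0.00915 and 0.0562, the last lost without untreated high-collagen replicate 2, at 0.223). Between high-collagen gels and plates Atf6 was at −0.014 without and −0.045 with IL-4, neither called, and after rescaling at 0.17 and 0.19, both called. In low-collagen gels Atf6 was lower than on plates, at −0.24 without IL-4 and −0.41 with it (limma adjusted p = 0.0248 and 0.00156). After rescaling 0 sensors were called lower in these low-collagen comparisons. In high-collagen gels all 4 stress sensing genes were then called higher than on plates, without and with IL-4 (37% and 37.6% of all genes). Eif2ak3 was among them, though as deposited it was not called in any comparison of gels with plates. Its values there were −0.13 and 0.075 at low and high collagen without IL-4, and −0.17 and 0.025 with it. The PERK gene Eif2ak3 lay between 15.3 and 23.98 TPM over the 12 libraries and was called lower with IL-4 in low-collagen gels (−0.23, adjusted p = 0.198), a call lost without any 1 of the 4 low-collagen libraries (up to 0.533) and on rescaling (−0.031).

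**Figure D3:**
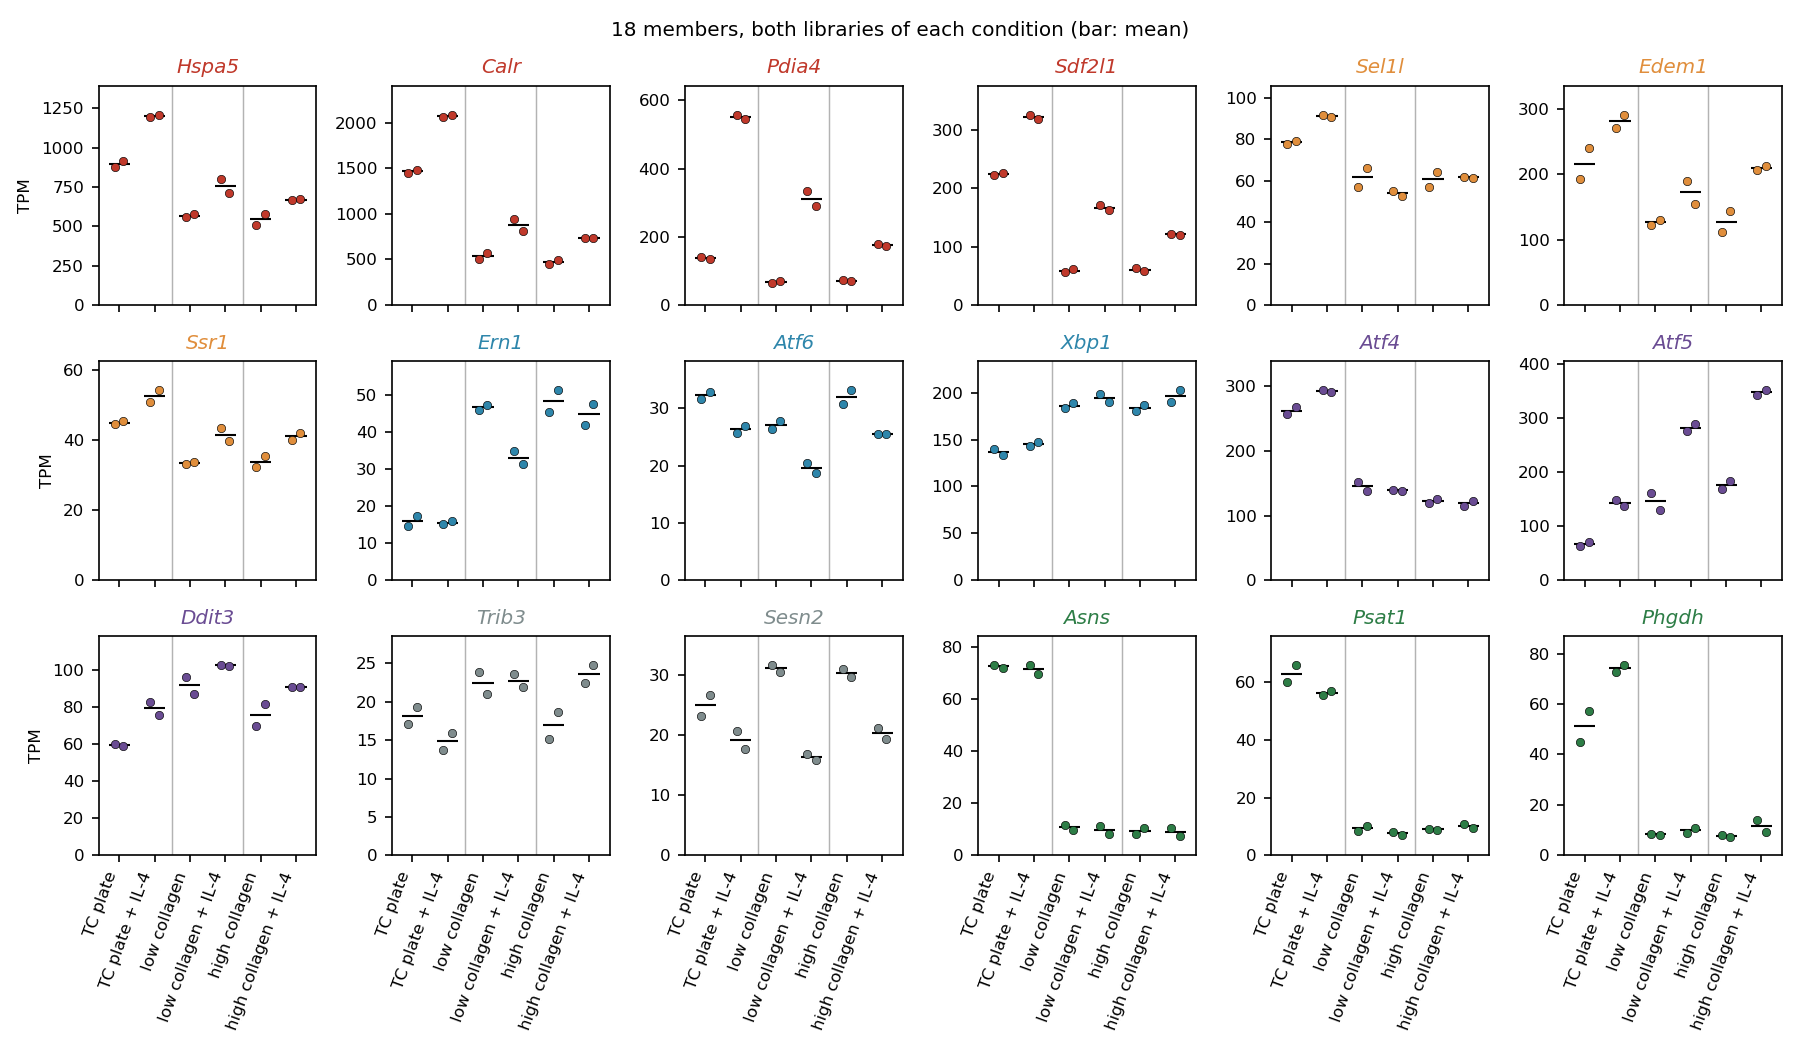
Points give TPM in both libraries of each condition and bars their mean for 18 members, from ER chaperones (red) through sensors (blue) and transcription factors (violet) to amino acid genes (green); every axis starts at 0. Ern1 and Xbp1 are higher in gels than on plates, Asns, Psat1 and Phgdh are lower, and Atf5 is higher both in gels and with IL-4.

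The transcription factors of the integrated stress response went separate ways. Atf4 was at 256 and 267 TPM on untreated plates and 295 and 291 with IL-4, at 152 and 138 untreated and 140.0 and 138 with IL-4 in low-collagen gels and at 120.1 and 126 untreated and 115 and 123 with IL-4 in high-collagen gels. All gel libraries were below all plate libraries, and high-collagen libraries were below low-collagen libraries in both treatments. IL-4 gave 0.16 on plates, a call lost without untreated plate replicate 1 or either IL-4 plate library (adjusted p up to 0.345). The difference from plates was −0.85 ± 0.062 and −1.09 ± 0.062 without IL-4 and −1.07 ± 0.062 and −1.29 ± 0.062 with it (adjusted p between 1.98e-07 and 2.3e-06). Atf4 is controlled mainly at translation, and its RNA level says little of its protein.

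Atf5, a related factor that is also translated under stress, was higher in gels, where Atf4 was lower. Its levels were 62.9 and 70.1 TPM on untreated plates, 147 and 138 on plates with IL-4, 162 and 130.1 untreated and 276 and 289 with IL-4 in low-collagen gels, and 169 and 184 untreated and 343 and 352 with IL-4 in high-collagen gels. IL-4 libraries were above the untreated libraries of each setting with no overlap. The IL-4 difference was 1.09 ± 0.10, 0.96 ± 0.10 and 0.98 ± 0.10 (adjusted p = 3.59e-05, 0.000409 and 0.000574), and that from plates was 1.11 ± 0.10 and 1.39 ± 0.10 without IL-4 and 0.98 ± 0.10 and 1.28 ± 0.10 with it. Atf5 lies beside Il4i1, itself a known IL-4 target, and 2.76% of its 31-base words occur in transcripts named Il4i1. How reads were divided between the genes was not tested.

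Ddit3, which encodes the death-promoting factor CHOP, was at 60.03 and 58.8 TPM on untreated plates, 95.98 and 86.9 in untreated low-collagen gels and 69.4 and 81.4 in untreated high-collagen gels, and at 82.7 and 75.5, 103 and 102, and 90.8 and 90.6 with IL-4. It was higher in gels by 0.61 ± 0.085 and 0.33 ± 0.085 without IL-4 (adjusted p = 0.000169 and 0.00678), and with IL-4 on plates by 0.41 ± 0.085 (adjusted p = 0.00701). All untreated gel libraries were above both untreated plate libraries. In low-collagen gels the IL-4 difference of 0.16 was not called as deposited (limma adjusted p = 0.208), and after rescaling it was 0.37 and called. In high-collagen gels the IL-4 difference was 0.27, a call lost without untreated high-collagen replicate 1 or either high-collagen IL-4 library (adjusted p up to 0.373).

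Among the stress targets, Trib3, a pseudokinase that restrains ATF4, was at 17.1 and 19.3 TPM on untreated plates and 13.7 and 15.9 with IL-4, at 23.9 and 21.03 untreated and 23.6 and 21.9 with IL-4 in low-collagen gels, and at 15.2 and 18.7 untreated and 22.4 and 24.8 with IL-4 in high-collagen gels. IL-4 gave −0.28 on plates and 0.46 in high-collagen gels, both called (limma adjusted p = 0.156 and 0.0446), and 0.018 in low-collagen gels, not called. With IL-4 Trib3 was higher in gels than on plates, by 0.59 ± 0.13 and 0.64 ± 0.13 (adjusted p = 0.00265 and 0.00159), and all gel libraries with IL-4 were above both plate libraries with IL-4. Without IL-4 the low-collagen difference of 0.29 was called but lost without replicate 1 of untreated plates or of untreated low-collagen gels (adjusted p up to 0.307), and the high-collagen libraries overlapped those of plates. Sesn2, a sestrin that restrains mTORC1 signaling, was at 23.2 and 26.8 TPM on untreated plates, 31.8 and 30.6 in untreated low-collagen gels and 30.99 and 29.8 in untreated high-collagen gels, and with IL-4 at 20.7 and 17.7, 16.96 and 15.9, and 21.2 and 19.5. IL-4 pairs were below untreated pairs in all settings, with differences of −0.36 ± 0.10, −0.89 ± 0.091 and −0.56 ± 0.091 (adjusted p = 0.031, 0.000344 and 0.00507, the first lost without untreated plate replicate 2, at 0.206). Chac1, which degrades glutathione, was scarce: 5.31 TPM on untreated plates and 1.03 and 0.438 in untreated gels (means of 2 libraries).

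The amino acid and folate genes were lower in gels as a group, in comparisons where 44.3%, 45.5%, 52.2% and 48.1% of all genes were lower. All 7 were lower in gels of either density without IL-4 and in low-collagen gels with it, where the call of the cystine carrier Slc7a11 (−0.41) was lost on rescaling (−0.17) and without replicate 2 of plates or of low-collagen gels with IL-4 (adjusted p up to 0.436). In high-collagen gels with IL-4, 6 were lower and 1, Slc7a11, was higher (0.37, adjusted p = 0.185), a call lost without any 1 of the 4 plate libraries, high-collagen IL-4 replicate 1 or either untreated low-collagen library (up to 0.798). Their median differences of −2.43, −2.23, −2.58 and −2.36 compare with −0.82, −0.79, −0.67 and −0.84 for the folding genes, and were −2.26, −2.04, −2.28 and −2.12 after rescaling, when the folding genes stood at −0.65, −0.60, −0.35 and −0.60. Summed over the 7 genes, plates held 763 and 779 TPM untreated and 778 and 752 with IL-4, low-collagen gels 341 and 344 untreated and 269 and 261 with IL-4, and high-collagen gels 286 and 275 untreated and 263 and 259 with IL-4. Plasma and B cell markers and neutrophil markers, which also differ between gels and plates, were given above, and their part in the differences of any member was not tested.

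Asns (asparagine synthetase, ENSMUSG00000029752, chr6:7675169-7693254 in GENCODE on GRCm38) was at 73.3 and 72.1 TPM on untreated plates and 73.2 and 69.9 with IL-4. In low-collagen gels it was at 11.7 and 9.85 untreated and 11.3 and 8.33 with IL-4, and in high-collagen gels at 8.04 and 10.4 untreated and 10.4 and 7.58 with IL-4. The lowest plate library held 69.9 TPM and the highest gel library 11.7, and treated and untreated libraries overlapped in both gels. Asns was 6.27-fold and 7.25-fold lower in the untreated low- and high-collagen gels (−2.65 ± 0.18 and −2.86 ± 0.18, adjusted p = 1.39e-06 and 7.87e-07), and IL-4 gave −0.023, −0.13 and −0.037, none passing.

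Phgdh and Psat1 encode the first enzymes of serine synthesis from a glycolytic intermediate. Psat1 was at 60.00 and 66.1 TPM on untreated plates and 55.6 and 57.1 with IL-4, at 8.41 and 10.3 untreated and 8.23 and 6.94 with IL-4 in low-collagen gels, and at 9.25 and 8.92 untreated and 10.99 and 9.44 with IL-4 in high-collagen gels. Phgdh was at 45.1 and 57.3 TPM on untreated plates, 72.8 and 75.6 on plates with IL-4, 8.60 and 7.94 untreated and 9.02 and 10.9 with IL-4 in low-collagen gels, and 7.93 and 7.27 untreated and 14.2 and 9.37 with IL-4 in high-collagen gels. For both genes every gel library lay far below every plate library, with no gel value above 14.2 TPM and no plate value below 45.1. The gel difference was −2.63 ± 0.12 and −2.67 ± 0.12 for Psat1 and −2.48 ± 0.18 and −2.59 ± 0.18 for Phgdh without IL-4. Phgdh rose with IL-4 on plates (0.54 ± 0.18, adjusted p = 0.0583), a call lost without untreated plate replicate 1 (adjusted p = 0.307), and in high-collagen gels (0.55 ± 0.19, adjusted p = 0.0991), a call lost without either untreated high-collagen library or high-collagen IL-4 replicate 1 (up to 0.43). The low-collagen difference of 0.24 passed only after rescaling (0.43). For Phgdh 56.3% of 31-base words occur in transcripts of other genes, 44.8% in Gm7901, so its level is less certain than that of Psat1.

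The mitochondrial folate enzymes Shmt2 and Mthfd2 differed from plates by −2.05 ± 0.14 and −2.43 ± 0.10 in untreated low-collagen gels and by −2.23 ± 0.14 and −2.06 ± 0.10 in untreated high-collagen gels. Slc3a2, the heavy chain shared by several amino acid carriers, differed by −0.47 and −0.85, and its partner Slc7a11 by −0.66 and −0.99, at means of 5.54 TPM on untreated plates and 3.15 and 2.34 in the gels. Slc7a11 is the cystine carrier whose promoter held 2 CAREs, and their windows are shown beside those of the stress targets that also hold one. Capitals again mark fixed letters.
Slc7a11, chr3:50443667-50443684, minus strand: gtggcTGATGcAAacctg
Slc7a11, chr3:50443648-50443665, minus strand: agaatTTgCATCAtcatg
Chac1, chr2:119351044-119351061, plus strand: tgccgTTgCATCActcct
Trib3, chr2:152344034-152344051, minus strand: caggtTTaCATCAgccgg

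**Figure D4:**
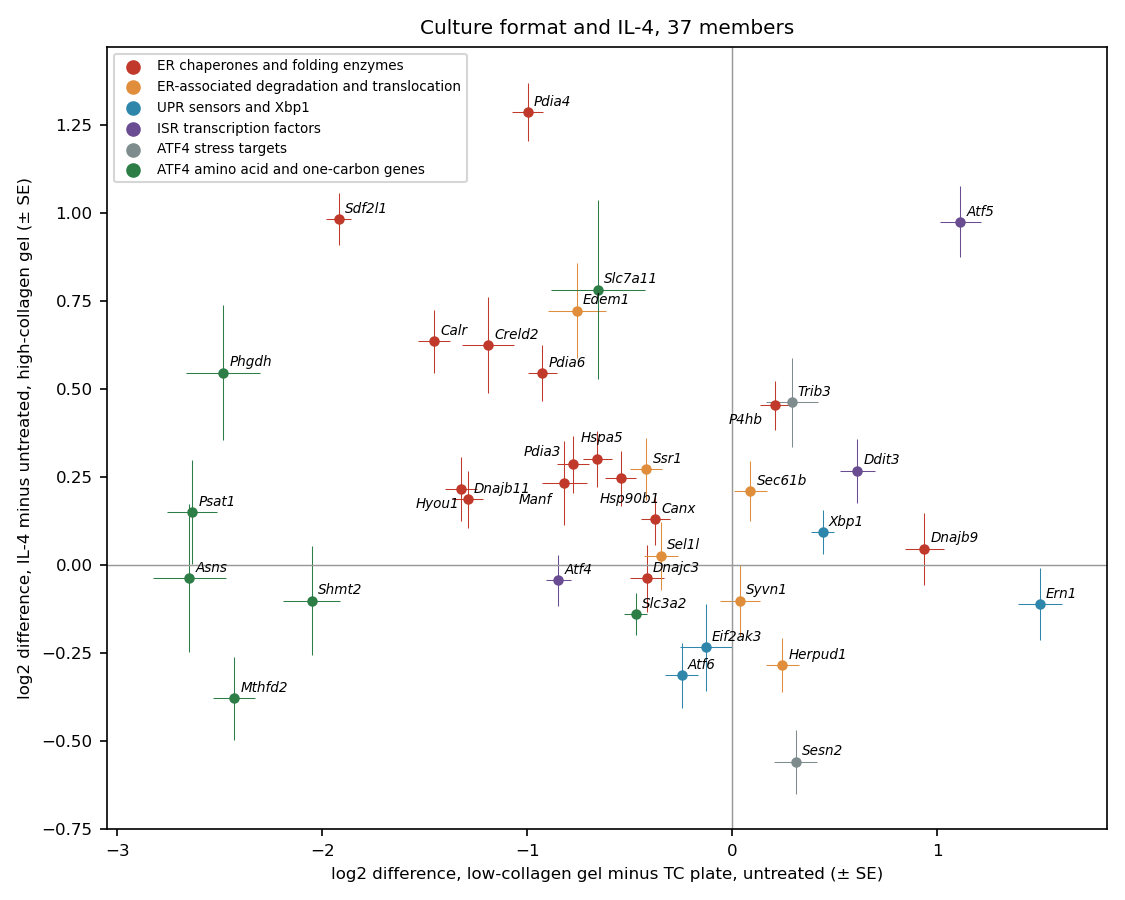
Each point is a member, with the log2 difference between untreated low-collagen gels and plates on the x axis and the IL-4 difference in high-collagen gels on the y axis (± SE from limma); the comparisons share no library. Amino acid genes other than Slc7a11 and Slc3a2 lie left of −2, and the folding genes Pdia4 and Sdf2l1 lie highest.

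Collagen density changed few members in untreated cells. Of 37, 1 was higher in high- than in low-collagen gels (Mthfd2, 0.37) and 3 were lower, Slc3a2 (−0.38 ± 0.06, adjusted p = 0.0497), Trib3 (−0.39) and Atf4 (−0.24), where 3.23% and 4.79% of all genes were called. The members' shares were 2.7% and 8.11%. The Mthfd2, Trib3 and Atf4 calls were lost without any 1 of the 8 gel libraries (adjusted p up to 0.537, 0.517 and 0.433), the Slc3a2 call without untreated high-collagen replicate 2 (0.206), and at most 2 members were called with any 1 library left out. Rescaling gave 1 higher, Atf6 (0.26), which had not been called, and 1 lower, Slc3a2 (−0.35), with 3.84% and 3.6% of all genes, and the Mthfd2, Trib3 and Atf4 calls were lost (0.40, −0.36 and −0.21).

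With IL-4, 7 members were higher in high-collagen gels and 5 lower (14.1% and 6.99% of all genes). The 5 lower members were the folding genes Pdia4, Sdf2l1 (−0.46 ± 0.075, adjusted p = 0.023), Pdia6 (−0.26) and Calr (−0.25), and Atf4 (−0.22). Higher were the lectin chaperone gene Canx (0.20), Ern1 (0.43 ± 0.10), Atf6 (0.36 ± 0.092), Atf5 (0.30), Sesn2 (0.29), Psat1 (0.39) and Slc7a11 (0.78). Among the 15 folding genes 1 was higher and 4 lower, at a median of −0.16 where all genes stood at 0.064, and after rescaling 0 were higher and 8 lower at −0.23. Over all members rescaling gave 4 higher and 10 lower, where 10.3% and 11.4% of all genes were. The calls for Canx, Atf5 and Sesn2 were lost on rescaling. Those for Pdia6, Atf4, Atf5 and Sesn2 were lost without any 1 of the 4 gel libraries with IL-4 (adjusted p up to 0.3, 0.355, 0.387 and 0.374). The Canx call was lost without either high-collagen IL-4 library or low-collagen IL-4 replicate 2 (up to 0.558), and the Slc7a11 call without high-collagen IL-4 replicate 1 or either low-collagen IL-4 library (up to 0.397). The Calr call was lost without either high-collagen IL-4 library or low-collagen IL-4 replicate 1 (up to 0.442), and those of Ern1 and Atf6 without replicate 2 of either gel with IL-4 (up to 0.266 and 0.286). Psat1 lost its call without any 1 of the high-collagen libraries or of the low-collagen libraries with IL-4 (up to 0.532). The count of 12 was 4 or 3 without high-collagen IL-4 replicate 1 or 2, and 6 or 3 without low-collagen IL-4 replicate 1 or 2.

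**Figure D5:**
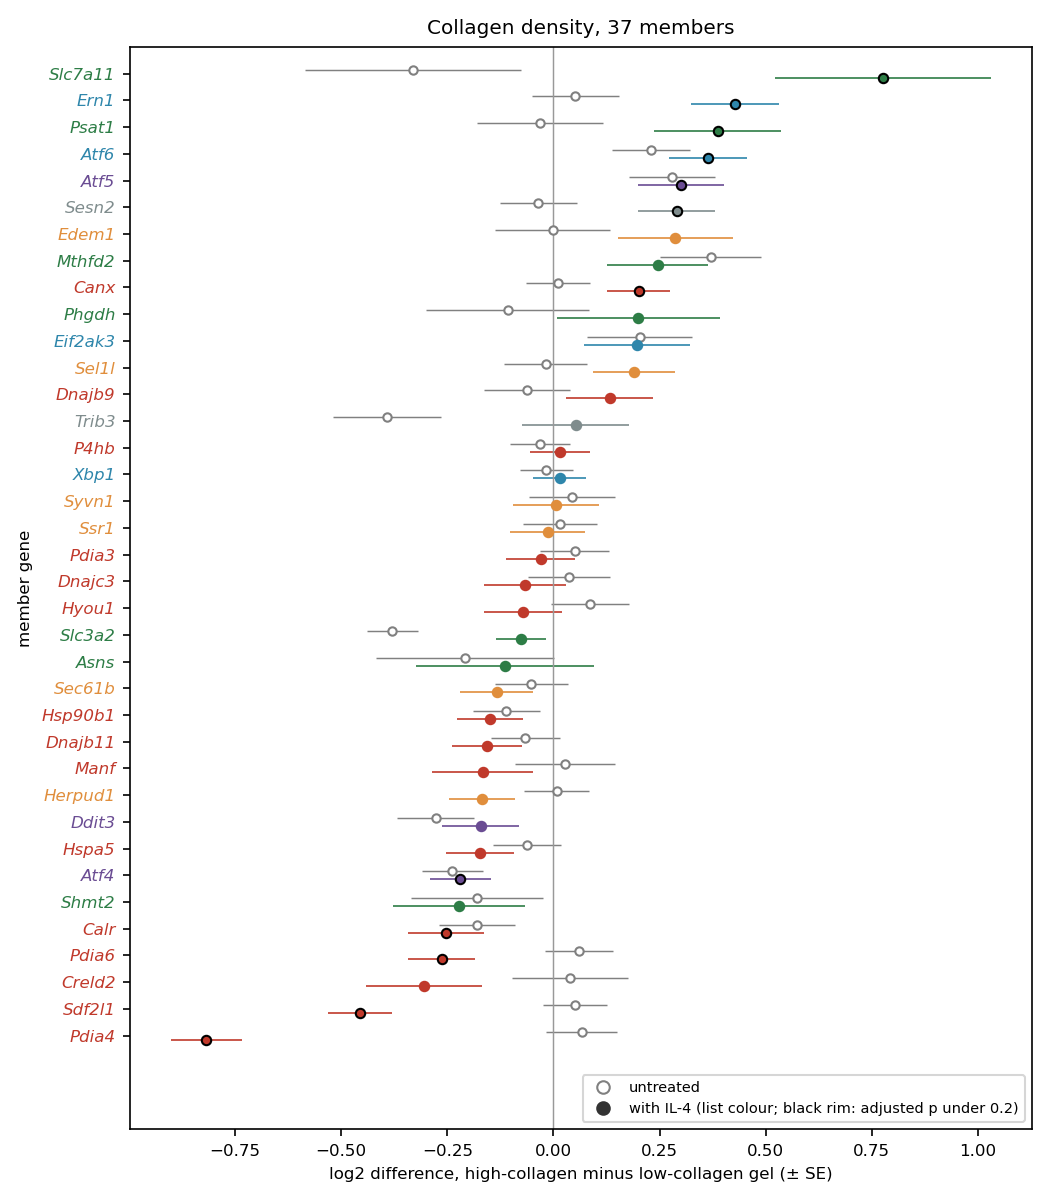
Points give the log2 difference between high- and low-collagen gels (± SE from limma) for 37 members, open for untreated cells and filled for IL-4, with a black rim where the IL-4 comparison passed. Pdia4 lies lowest with IL-4, at −0.82, and near 0 without it.

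The difference between the IL-4 responses of the gels was tested as an interaction. Of 37 members, Pdia4 alone passed (−0.88 ± 0.12, adjusted p = 0.0831), with a smaller response in high collagen. Of all genes tested, 0.169% were lower in this comparison and 0.194% higher. The Pdia4 call was lost without untreated high-collagen replicate 1 or either high-collagen IL-4 library (adjusted p up to 0.325), and with no mean-variance trend (adjusted p = 0.233), when 0 members passed. Sdf2l1 was at −0.51 ± 0.11 (adjusted p = 0.251), and at −0.61 and called after rescaling.

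IL-4 responses in gels were also tested against the response on plates, a comparison that shares the plate libraries. Of 38 members, the response in low-collagen gels was more positive for 4 and more negative for 6 (9.30% and 18.7% of all genes). In high-collagen gels it was more positive for 4 and more negative for 2 (8.66% and 8.61%). The more positive responses in low-collagen gels were all in folding genes: Sdf2l1 (0.97 ± 0.089, adjusted p = 0.000236), Pdia6 (0.43 ± 0.10, adjusted p = 0.0246), Creld2 (0.40) and P4hb (0.28). The more negative ones were in Sesn2 (−0.52), Ern1 (−0.47), Sel1l (−0.40), Slc3a2 (−0.38), Herpud1 (−0.26) and Atf4 (−0.22). Sesn2, Ern1 and Slc3a2 were at −0.36, −0.023 and −0.063 with IL-4 on plates and at −0.89, −0.49 and −0.44 in low-collagen gels. Sel1l, Herpud1 and Atf4 were at 0.22, 0.15 and 0.16 on plates and at −0.18, −0.11 and −0.063 in low-collagen gels. Ern1 lost its call without untreated plate replicate 1 or low-collagen IL-4 replicate 2 (adjusted p up to 0.236), and Atf4 without untreated plate replicate 1, either IL-4 plate library, untreated low-collagen replicate 1 or either low-collagen IL-4 library (up to 0.32). P4hb lost its call without replicate 2 of plates of either treatment, untreated low-collagen replicate 2 or low-collagen IL-4 replicate 1 (up to 0.291), Herpud1 without untreated plate replicate 1, either IL-4 plate library, either untreated low-collagen library or low-collagen IL-4 replicate 2 (up to 0.432), and Creld2 without any 1 of 9 libraries, the exceptions being IL-4 plate replicate 1 and both untreated high-collagen libraries (up to 0.383). In high-collagen gels the response was more positive for Sdf2l1 (0.47), P4hb (0.33), Trib3 (0.74 ± 0.18, adjusted p = 0.0394) and Slc7a11 (1.36). It was more negative for Pdia4 (−0.71 ± 0.10, adjusted p = 0.00357) and Herpud1 (−0.43). With IL-4 Trib3, Slc7a11 and Herpud1 were at −0.28, −0.57 and 0.15 on plates and at 0.46, 0.78 and −0.29 in high-collagen gels. Here P4hb lost its call without replicate 2 of plates of either treatment or untreated high-collagen replicate 1 (up to 0.248). Rescaling moved the median of all genes for low-collagen gels from −0.12 to 0.012. The member counts there became 11 of 38 more positive and 4 more negative, where 14.5% and 10.1% of all genes were. Of the 15 folding genes 9 were then more positive and 0 more negative, at a median of 0.28. For high-collagen gels rescaling gave 4 members more positive and 2 more negative (11.1% and 6.99% of all genes). The count of 10 in low-collagen gels was 6 without untreated plate replicate 1 and 6 without IL-4 plate replicate 2.

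Other genes of the same pathways were counted beside the members. The 11 cytosolic tRNA synthetase genes chosen for the list load amino acids onto tRNAs and are known ATF4 targets. All 11 were lower in gels in each of the 4 comparisons with plates (against 44.3%, 45.5%, 52.2% and 48.1% of all genes). Their medians were −1.20, −1.30, −1.10 and −0.99, with Iars at −1.76 and Tars at −1.92 in untreated low- and high-collagen gels. Genes of the lists below that reached the filter only on plates or only in gels were left out of comparisons with plates. Of 10 genes of amino acid supply outside the members with a mean of at least 1 TPM both on plates and in gels, 7 were lower in untreated low-collagen gels, where 45.5% of all such genes were, 8 in untreated high-collagen gels (46.9%), and 8 in gels of either density with IL-4 (53.9% and 49.6%). The arginine carrier Slc7a1 was at −2.75 (adjusted p = 3.34e-07) in untreated low-collagen gels and the leucine carrier Slc7a5 at −3.27 (adjusted p = 1.4e-05) in untreated high-collagen gels, while the aspartate aminotransferase Got1 was higher (0.26 and 0.24).

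Among 13 regulators and targets of the integrated stress response outside the members with a mean of at least 1 TPM both on plates and in gels, 5 were higher and 5 lower in untreated low-collagen gels, where 27.5% and 45.5% of all such genes were, and 5 higher and 4 lower in untreated high-collagen gels (27% and 46.9%). Between gels and plates that both received IL-4 the counts were 4 and 8 at low (21.9% and 53.9%) and 5 and 6 at high collagen (25.6% and 49.6%). The stress cytokine Gdf15 stood lowest in the untreated gels (−1.73 and −2.42). With IL-4, 2 of the 13 were higher and 5 lower on plates (15.1% and 24.9%), and of 14 tested in gels 2 were higher and 8 lower at low and 3 and 5 at high collagen (13.2% and 40.4%, and 11.5% and 22.8% of all genes). The stress-responsive factor Atf3 rose most (1.21, 0.69 and 0.87), and Gdf15 fell most on plates and in low collagen (−0.99 and −1.27) and Ddit4, which restrains mTORC1, in high collagen (−0.80). Of 20 other ER folding genes, 10 were higher with IL-4 on plates, 14 at low and 9 at high collagen density, and 4, 0 and 0 lower, at medians of 0.17, 0.25 and 0.16. The shares of all genes higher and lower were 14.7% and 24.0%, 13.2% and 40.4%, and 11.5% and 22.8%. In untreated gels of either density 13 of 19 were lower than on plates and 4 higher, while among cells given IL-4, 7 were lower and 7 higher at low and 9 lower and 7 higher at high collagen, beside the shares of such genes given above for each comparison. Ero1l, the oxidase that recharges disulfide isomerases, was the highest of them in gels (1.59 and 1.54 untreated, 1.93 and 2.52 with IL-4), and Uggt1, which senses misfolded glycoproteins, the lowest in untreated gels (−1.08 and −0.95).

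The other lists were read in the same way, as genes higher and lower, beside shares of all genes of 14.7% and 24.0%, 13.2% and 40.4%, and 11.5% and 22.8% with IL-4 on plates, in low- and in high-collagen gels. For low- and high-collagen gels against plates these shares were, untreated, 27.5% and 45.5%, and 27% and 46.9%, and with IL-4 21.9% and 53.9%, and 25.6% and 49.6%. Among 14 other degradation genes these numbered 0 and 2, 2 and 6, 1 and 2 with IL-4 on plates, in low- and in high-collagen gels, and 4 and 7, 5 and 7 of 13 in untreated low- and high-collagen gels against plates, and 4 and 8, 3 and 8 of 13 with IL-4. The mannosidase-like Edem2 was higher (0.57 and 0.65) and the ubiquitin-conjugating Ube2j1 lower (−1.05 and −1.09) in the untreated gels. Among 12 tested translocation genes the IL-4 counts were 2 and 1, 4 and 4, 4 and 3, with the signal peptidase subunit Spcs2 at 0.26 on plates and the translocon-associated Ssr2 at 0.61 and 0.34 in low and high collagen. Against plates they were 4 and 4, 3 and 6 in the untreated gels, and 4 and 3, 3 and 5 with IL-4. The tRNA synthetases gave 2 and 1, 1 and 1, 1 and 1 with IL-4, where Wars, for tryptophan, reached 0.51 and 0.74 in the 2 gels. Heat shock genes, whose proteins fold chains outside the ER, gave 7 and 0, 3 and 1, 4 and 2 with IL-4, with Hsph1 at 1.49, 1.64 and 0.99. In every comparison of gels with plates 11 of 13 heat shock genes were lower and 2 higher, the inducible Hspa1b at 2.20 and 1.71 without IL-4 and Hspa1a at 2.19 and 2.16 with it.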

How the data were processed

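RNA was sequenced from 12 libraries, 2 for each of 6 conditions. The authors deposited 1 table of TPM values per gene. The submitters' processing notes name kallisto 0.46.1 and GRCm38, and TPM keeps no read depth (library sums ran from 997505 to 997977). Of 34456 lines, 129 repeated ones were collapsed, leaving 34327 genes. The members and lists were chosen with earlier results of these data known. Every gene whose mean reached 1 TPM was tested on log2(TPM + 1) with limma 3.58.1 in R 4.3.3, with a mean-variance trend and 1 mean per condition. P-values were adjusted by Benjamini-Hochberg over all genes tested and called under 0.2. Gel comparisons used the 8 gel libraries (11852 genes), and comparisons with plates all 12 (11865 genes). The code was tested on simulated data.

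Values in every library are given for Hspa5, Xbp1, Atf4, Ddit3 and Asns and for up to 3 members per sublist with the widest span of condition means at a mean TPM of at least 5, which made 18. From other lists some called rises and falls are named, not the largest of every comparison. Each analysis was repeated with 0.1 as pseudocount, with the filter removed or raised to 5 TPM, without the trend, after median-ratio rescaling, with replicate numbers as blocks, at a stricter threshold (0.05), with all 12 libraries in gel comparisons, and leaving out each library. Promoters came from RefSeq (GRCm38.p6) and gene positions from GENCODE. Figures were drawn with matplotlib 3.10.9, and sequences searched in Python 3.11.15 (numpy 2.4.6, pandas 2.3.3).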

Additional observations from a re-analysis of the deposited data

Results flagged for a closer look

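Differences between IL-4 responses that passed the test of the difference itself are listed here as log2 values. Between the gels, the Pdia4 response was smaller in high collagen (−0.88). Against plates, the low-collagen response was more positive for Pdia6 (0.43), P4hb (0.28), Sdf2l1 (0.97) and Creld2 (0.40). It was more negative for Herpud1 (−0.26), Sel1l (−0.40), Ern1 (−0.47), Atf4 (−0.22), Sesn2 (−0.52) and Slc3a2 (−0.38). In high collagen it was more positive than on plates for P4hb (0.33), Sdf2l1 (0.47), Trib3 (0.74) and Slc7a11 (1.36), and more negative for Pdia4 (−0.71) and Herpud1 (−0.43). Both gel responses were set against the same plate libraries.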

How the results depend on the processing

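Members called under other settings are given beside the number in the report. At an adjusted p under 0.05 they numbered 13 of 22 for IL-4 on plates, 12 of 24 for IL-4 in high collagen, 1 of 4 and 2 of 12 for collagen density without and with IL-4, 0 of 1 for the interaction, and 3 of 10 for the low-collagen response against plates. Without a filter the density counts were 1 and 7. With no trend the untreated density count was 1, the interaction 0 and the low-collagen response 6. Median-ratio rescaling gave 2 for untreated density and 2 for the interaction, and all 12 libraries in the fit gave 7 and 2. Among the 18 members named throughout, rescaling ended a call with a change of sign for Sel1l with IL-4 in low collagen (0.022) and Sesn2 in low collagen against plates with IL-4 (0.091), and made one with a change of sign for Atf6 in high collagen against plates without and with IL-4 (0.17 and 0.19). Of the other members, sign and call also changed for Canx with IL-4 in low collagen (0.15), and, against plates with IL-4, for Herpud1 in low and high collagen (0.30 and 0.064) and Syvn1 in low collagen (0.062). The cause was not tested. With 1 library left out, counts ran from 14 to 23 for IL-4 on plates, 20 to 24 in low and 13 to 24 in high collagen, 0 to 2 and 3 to 13 for density without and with IL-4, 0 to 1 for the interaction, and 6 to 11 and 5 to 9 for the low- and high-collagen responses against plates. Gels against plates gave 34 to 36 and 32 to 33 untreated, and 34 to 36 and 32 to 34 with IL-4, for low and high collagen. Of 216 log2 values for the 18 members, rescaling ended 13 calls, 2 of them with a change of sign, and made 15, no trend ended 8 and made 1, no filter ended 8, and the replicate block ended 4. Of 115 calls for the other members, 29 were lost without some 1 library. A mean of at least 1 TPM required on plates and in gels separately, chosen after seeing the data, left out Chac1 and ended no call of those 18. A condition left with 1 library was assumed to vary like the others. The replicate block gave 1 member for untreated density in place of 4, and moved no other count by more than 1.5 times. Libraries with the same number did not deviate together (r from −0.123 to 0.109 over 15 pairs of conditions), and whether they share an animal or a day is not known. A block with crossed numbers, chosen after seeing the data, gave 22 members on plates and 23 in low collagen. TPM holds no depth, so counting error is unknown.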

Other observations

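Myc, Mki67 and Pck2, genes outside the lists, were read after values of the members had been seen and are given as values only. Myc was at 48.7 and 50.7 TPM on untreated plates and 79.1 and 81.4 with IL-4, 11.4 and 12.1 untreated and 43.04 and 44.9 with IL-4 in low collagen, and 7.94 and 7.83 untreated and 27.7 and 28.2 with IL-4 in high collagen. The proliferation marker Mki67 was at 129 and 137 TPM on untreated plates and 33.99 and 42.6, and 38.2 and 40.7, in untreated low and high collagen. Every gel library of Myc and Mki67 was below the plate libraries of the same treatment. Pck2, a mitochondrial enzyme of gluconeogenesis, was at 37.1 and 34.7 TPM on untreated plates and 57.1 and 47.9, and 58.2 and 56.8, in untreated low and high collagen, higher in gels, and with IL-4 at 30.9 and 30.3, 23.4 and 23.6, and 32.1 and 32.4. The part of these genes in the differences between gels and plates was not tested.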
